A study of Mus musculus with 4 samples.

Results

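The cells described here are T cells of mouse peripheral blood that also carry Klrb1c mRNA, called NKT-like cells below. Blood was drawn from C57BL/6 female mice of 4 months (young) and 24 months (old), without any treatment or engineered allele. It was pooled from 2 mice per sample into 2 young and 2 old samples, so the sample is the replicate (n = 2 per age) and single mice cannot be told apart. Mononuclear cells were enriched on a density gradient and freed of red cells by lysis, and the 3′ ends of their transcripts were counted as unique molecular identifiers (UMIs). The cells were chosen by their own UMI counts. A cell was taken as NKT-like if it held at least 3 UMIs of Cd3d, Cd3e and Cd3g together and at least 1 of Klrb1c. It was also to have no UMI of Gzmk, at most 1 of Cd8a and Cd8b1 together, at most 2 of Cd79a and at most 4 of Lyz2. These limits are aimed at Gzmk T cells, Cd8 T cells, and T cells sharing a droplet with a B cell or a monocyte. Such cells can still pass where few or no UMIs of these genes were counted. No limit is aimed at a T cell sharing a droplet with an NK cell, which can carry both Cd3 and Klrb1c. The gate held 198 of 14588 cells. Of these, 83 and 94 came from the young samples, 10 and 11 from the old ones. Every count from old NKT-like cells therefore rests on 21 cells.

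NKT cells are T cells whose receptor binds lipid antigens shown by the molecule CD1d rather than peptides shown by classical MHC. They carry receptors otherwise found on natural killer (NK) cells, are directed in development by the transcription factor PLZF, encoded by Zbtb16, and release cytokines within hours of activation. Klrb1c encodes the receptor recognised by the antibody NK1.1 in C57BL/6 mice. Conventional T cells can also switch this receptor on, and a T cell with Klrb1c is not by this alone a CD1d-restricted cell. The T cell receptor genes were not analysed here, so the receptor that defines NKT cells was not checked, and of 15 genes written down for γδ T cells only 3 (Sox13, Cd163l1 and Blk) were in the counts. The NKT-like cells were set against NK cells (391 cells with at least 3 UMIs of Klrb1c, Klre1 and Ncr1 together and at most 1 of Cd3) and against Cd4 T cells. The latter are 450 cells that passed the same limits as the NKT-like cells but had no Klrb1c and at least 1 UMI of Cd4.

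The NKT-like cells summed to 273325 and 310473 UMIs in young blood, and to 45248 and 30577 UMIs in old blood. Their median was 3101.5 UMIs per cell, beside 2279 in NK and 2824 in Cd4 T cells. They held a median of 9 Cd3 UMIs (range 3 to 33) and of 1 Klrb1c UMI (range 1 to 8). Of all cells, 216 carried a barcode found in 2 libraries, among them 1 NKT-like cell. A doublet caller marked 87 cells (0.596%), among them 3 NKT-like cells. B cells, which should lack Klrb1c, had a UMI of it in 55 of 8898 cells (0.618%, 95% exact binomial interval 0.466% to 0.804%, counting error only). Among the T cells that met every other limit, Klrb1c was found in 10.5% (young 1), 13.6% (young 2), 6.76% (old 1) and 8.33% (old 2), above the B cell share in each sample.

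The gate's edge in Klrb1c is shown here as a description, since Klrb1c chose the cells. T cells that met every other limit but had no Klrb1c (1567 cells) had 90.7 Cxcr6, 115 Il2rb and 430 Id2 CPM (UMIs of the gene per 1000000 UMIs of the cells). The 108 cells with 1 Klrb1c UMI had 723 CPM of Cxcr6, a chemokine receptor of tissue-homing T cells. Il2rb, which encodes the shared β chain of the IL-2 and IL-15 receptors, stood at 430 CPM in them. Id2, a transcriptional regulator of innate lymphocytes, stood at 1849 CPM. Cells with 2 Klrb1c UMIs (59 cells) had 613 CPM of Cxcr6 and those with 3 or more (31 cells) had 546 CPM. With 0, 1, 2 and 3 or more Klrb1c UMIs, the NK adaptor Tyrobp stood at 68.5, 231, 332 and 870 CPM. The granule gene Nkg7 stood at 382, 1558, 2070 and 2499 CPM. The NK receptor gene Klrk1, at 77.4, 551, 532 and 475 CPM, did not rise within the gate. The part of droplets shared with NK cells in these levels was not tested. At the edge in Cd3, 12 cells with 3 Cd3 UMIs had 723 CPM of Tyrobp, and 7 cells with 2 Cd3 UMIs, just outside, had 1878 CPM. The limits on Gzmk, Cd8, Cd79a and Lyz2 kept out 2, 23, 15 and 1 cells that met all others.

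**Figure D1:**
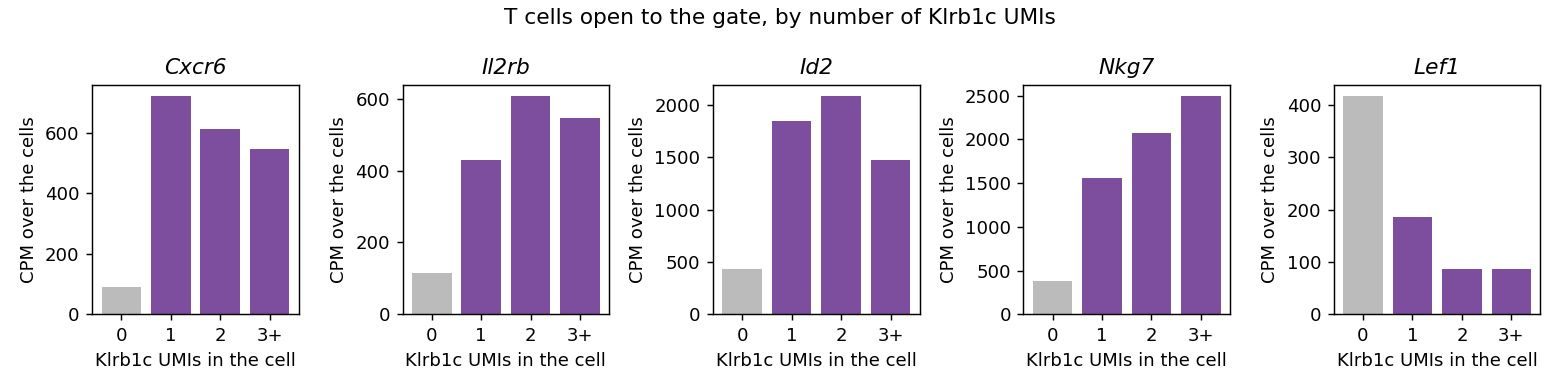
T cells that met every limit of the gate other than that on Klrb1c, by number of Klrb1c UMIs in the cell (x axis; grey, outside the gate; purple, NKT-like cells). Bars show the level over all such cells in CPM for Cxcr6, Il2rb, Id2, Nkg7 and Lef1; cells with 1 Klrb1c UMI had 723 CPM of Cxcr6 and cells with none 90.7 CPM.

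The label was checked against the markers that come with it and against Zbtb16. Klrb1c and Cd3e were set by the gate. Id2 had a UMI in 174 of 198 NKT-like cells (87.9%), beside 4.17% of B cells. Cd44, the hyaluronan receptor of experienced T cells, had a UMI in 26.8% of NKT-like and 22.8% of B cells, so at this depth it did not set the cells apart from B cells. Against Cd4 T cells (10.9%) Cd44 was called higher (1.12, SE 0.29, edgeR adjusted p = 0.0041), a call kept in 11 of 16 alternatives. Zbtb16 had a UMI in 21 of 198 cells (10.6%, interval 6.69% to 15.8%), beside 7 of 391 NK, 5 of 450 Cd4 T and 3 of 8898 B cells. After each cell had been thinned to 1000 UMIs, Zbtb16 remained detected in 5.56% of NKT-like, 0.512% of NK and 0% of Cd4 T cells. PLZF mRNA was thus detected in a minority of the cells, at a level of 36.6 and 35.4 CPM in young blood and of 22.1 and 0 CPM in old blood, and the name NKT-like is kept as a working name for the gate. Cd4, found on part of the NKT cells of mice, had a UMI in 20 of the 198 cells (10.1%).

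Numbers of NKT-like cells by age were compared first. NKT-like cells made up 2.13% and 2.44% of all cells in young blood, against 0.215% and 0.503% in old blood. Both old samples lay below both young ones, and the mean was 2.28% ± 0.219 (SD, n = 2) in young and 0.359% ± 0.203 (SD, n = 2) in old blood. The lowest young share was 4.23 times the highest old one. The log2 change in old blood was -2.81 (SE 0.42, edgeR quasi-likelihood test over the numbers of 7 gated populations, adjusted p = 0.014). A two-sided exact permutation test gave p = 0.33, the smallest that 2 against 2 samples allow. In the same fit NK cells changed by -1.54 (SE 0.11, edgeR adjusted p = 0.0046) and Cd4 T cells by -2.19 (SE 0.31, edgeR adjusted p = 0.014). B cells, which held most of the cells, changed by 0.45 (SE 0.09, edgeR adjusted p = 0.024), and any share of all cells also depends on their number.

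Set against other lymphocytes, the difference was smaller. NKT-like cells made up 7.37% and 10.6% of T cells (cells with at least 3 Cd3 UMIs and the same limits on Cd79a and Lyz2) in young and 3.38% and 5.29% in old blood. The samples of the ages did not overlap, but the log2 change of -1.08 (SE 0.37) did not pass the threshold (edgeR over 4 T cell populations, adjusted p = 0.073). Without the limits on Gzmk and Cd8 it was -0.91 and passed (edgeR adjusted p = 0.042). Under no other alternative run did it pass. For every 100 NK cells there were 56.5 and 61.4 NKT-like cells in young blood, against 15.9 and 39.3 in old blood, a difference with an exact permutation p of 0.33.

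**Figure D2:**
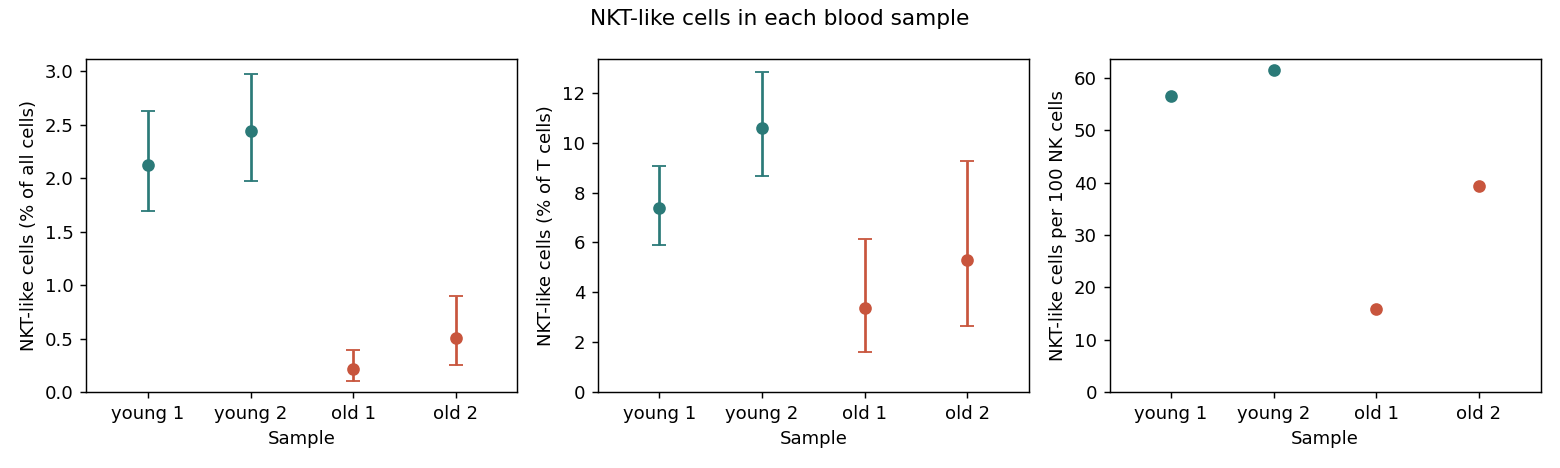
NKT-like cells in the 4 blood samples (x axis; green, young; red, old) as percent of all cells, as percent of T cells and per 100 NK cells. Bars in the first 2 panels are 95% exact binomial intervals, which cover counting error only; both old samples lie below both young ones in each panel, at 0.215% and 0.503% of all cells beside 2.13% and 2.44%.

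Gene expression was compared with NK cells on UMIs summed per sample and population, with the sample as a block and the 13 genes used by the gates left out. Against NK cells, NKT-like cells were higher in genes of T cell receptor signaling and lower in lectin receptors, Ly49 receptors and most granule genes. Of 3738 genes tested 539 were called (14.4%, adjusted p under 0.05), 262 higher (7.01%) and 277 lower (7.41%). Without young sample 1 the count was 283, without young sample 2 it was 225, and DESeq2 called 254. Both populations were gated by genes of T and NK cells, so a difference in genes that vary together with the gate genes is part of how the cells were chosen. A gene was tested if at least 10% of the cells of either population had a UMI of it, which fixes the direction of genes found in 1 population only. Of 731 genes that entered through NKT-like cells alone 102 were higher and 1 was lower, and of 290 that entered through NK cells alone 112 were lower and none higher. Of the 2717 genes found in both populations 5.89% were higher and 6.04% lower, and the counts per group below are given for these.

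Of 21 genes in the counts from a list for the T cell receptor complex and signaling, 10 were found in both populations, of which Cd27, Lat, Lcp2, Skap1, Thy1 and Zap70 were higher and Fyn was lower. Another 7, among them Cd5 and Cd28, entered through NKT-like cells alone and were higher. Cd5, an inhibitory surface receptor of T cells, stood at 43.9 and 58.0 CPM in young and 22.1 and 32.7 CPM in old NKT-like cells. In NK cells it stood at 0, 2.59, 0 and 0 CPM, so the populations did not overlap. In 29.8% of all genes tested the difference had 1 sign in all 4 samples. For Cd5 it passed the test (log2 difference 4.92, SE 0.79, edgeR adjusted p = 0.00023), in a direction that the filter had set, as it had for Cd28. Cd28, the costimulatory receptor, stood at 205, 216, 66.3 and 294 CPM in young 1, young 2, old 1 and old 2, beside 34.4, 41.5, 21.2 and 51.2 CPM in NK cells (2.45, SE 0.25, edgeR adjusted p = 1e-06). Lat, the adaptor downstream of the receptor, was higher by 1.95 (SE 0.24, edgeR adjusted p = 1.3e-05) and Thy1 by 2.17 (SE 0.21, edgeR adjusted p = 7e-07). Old sample 1 was the lowest of the 4 NKT-like samples for Cd28, Lat and Thy1.

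The chemokine receptor Cxcr6 had the largest log2 difference among the genes called higher in every sample. It stood at 746 and 721 CPM in young blood and at 66.3 and 65.4 CPM in old blood, beside 18.5, 7.77, 15.9 and 0 CPM in NK cells (5.48, SE 0.35, edgeR adjusted p = 2.5e-09). A Cxcr6 UMI was found in 129 of 198 NKT-like cells (65.2%), 6 of 391 NK cells and 49 of 8898 B cells. The next were Cd5, Asb2, Plcg1, Slco3a1, Ckb, Cd6, Socs2, Klk8 and Slfn1, with log2 differences from 4.92 down to 3.98. Plcg1 encodes the phospholipase activated downstream of the T cell receptor and Cd6 a T cell surface receptor. Cxcr3, another chemokine receptor, stood at 212 and 254 CPM in young and 66.3 and 0 CPM in old NKT-like cells, and was higher than in NK cells by 3.12 (SE 0.30, edgeR adjusted p = 6.7e-07). Il7r, the receptor that keeps resting T cells alive, was higher by 3.92 (SE 0.35, edgeR adjusted p = 2.8e-07). Cxcr6, Cxcr3 and Il7r each entered through NKT-like cells alone, so that their direction was set by the filter.

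NK receptors were present but lower. Of 14 genes in the counts for the NKR-P1 and NKG2 lectin receptors, 5 were found in both populations (Klrb1f, Klrc1, Klrc2, Klrd1 and Klrk1), and all 5 were lower. Another 4 entered through NK cells alone and were lower, and the activation antigen Cd69 entered through NKT-like cells alone and was higher. Klrk1, which encodes NKG2D, stood at 622, 444, 530 and 589 CPM in NKT-like and 1379, 1376, 1006 and 942 CPM in NK cells (-1.17, SE 0.15, edgeR adjusted p = 2.4e-05). Klrd1, its relative CD94, was lower by 1.59 on the log2 scale. Klrg1, 1 of the 4 that entered through NK cells alone, marks mature NK cells. It stood at 7.32, 3.22, 0 and 0 CPM beside 241, 238, 424 and 195 CPM (-5.55, SE 0.41, edgeR adjusted p = 1.7e-08). The Ly49 receptors (Klra genes) bind MHC class I and lie in a cluster of near-identical copies, so that reads may be split between them. Of 10 in the counts Klra7 and Klra9 were found in both populations and were lower, and 4 entered through NK cells alone. Klra8, 1 of these 4, encodes Ly49H and stood at 18.3, 19.3, 0 and 0 CPM beside 680, 560, 455 and 481 CPM (-5.06, SE 0.29, edgeR adjusted p = 1.3e-09).

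The cytotoxic program was lower as well. Of 17 granule genes in the counts 11 were found in both populations, of which 7 were lower and none was called higher. Gzma stood at 516, 535, 2763 and 32.7 CPM in NKT-like cells and between 10825 and 15575 CPM in NK cells (-4.19, SE 0.35, edgeR adjusted p = 1.2e-07). Its spread over the NKT-like samples was wide, with old sample 1 highest and old sample 2 lowest. Prf1, encoding perforin, entered through NK cells alone and stood at 7.32, 3.22, 0 and 0 CPM beside 92.7, 64.8, 127 and 30.7 CPM. Nkg7, a granule membrane protein, was nearer, at 2078, 1697, 2276 and 1603 CPM beside 5252, 4740, 5426 and 4681 CPM (-1.40, SE 0.12, edgeR adjusted p = 2.5e-07). Of 12 adaptors and signaling genes of NK cells 8 were found in both populations, and Fcer1g and Tyrobp of these were lower, with Tyrobp (encoding DAP12) at 417, 348, 597 and 131 CPM beside 3656, 3398, 3859 and 2745 CPM. Hcst, encoding the NKG2D adaptor DAP10, was 878, 860, 553 and 883 CPM beside 712, 772, 715 and 891 CPM and was not called (0.10, SE 0.16, edgeR adjusted p = 0.77). Serpinb9b, Cma1, Scimp, Adamts14, Khdc1c and Tnfsf12 were also among the 10 genes with the largest log2 differences downward. For Rac3 and Gm28875 no NKT-like cell held a UMI, so only a bound can be given. With 3 UMIs allowed over all NKT-like cells, Rac3 was at least 11.9-fold and Gm28875 at least 22.2-fold lower.

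Cytokine transcripts and transcription factors were split. Il4 had 26 UMIs in NKT-like cells, at 43.9 and 45.1 CPM in young blood and 0 CPM in both old samples, and none in NK cells, a difference of at least 13.8-fold with 3 UMIs allowed over all NK cells (edgeR adjusted p = 0.0012). In old blood 0 of 21 cells had an Il4 UMI, which allows a share of up to 14.3%. Ltb, encoding lymphotoxin β, was higher by 2.85 (SE 0.21, edgeR adjusted p = 1.7e-08). The inflammatory chemokines Ccl3, Ccl4 and Ccl5 were lower by 3.11, 3.20 and 1.30 on the log2 scale. Ccl3 and Ccl4 entered through NK cells alone and Il4 through NKT-like cells alone, so that their direction was set by the filter. Of 6 chemokine and cytokine genes found in both populations Ltb was higher and Ccl5 was lower. Xcl1, which attracts cross-presenting dendritic cells, stood at 285, 322, 177 and 196 CPM beside 212, 244, 31.8 and 113 CPM and was not called (0.64, SE 0.22, edgeR adjusted p = 0.055). Of 14 transcription factors found in both populations Lef1 was higher and Tbx21, Klf2 and Bhlhe40 were lower. Tbx21 kept its call in 12 of 17 alternatives and Lef1 in 13 of 17. Zbtb16, Rora, Bcl11b, Ikzf2 and Tcf7 entered through NKT-like cells alone and were higher, and Eomes, Zeb2 and Irf8 entered through NK cells alone and were lower. Bcl11b, which keeps T cell identity, stood at 146, 171, 0 and 65.4 CPM beside at most 2.65 CPM in NK cells (5.70, SE 0.50, edgeR adjusted p = 3.3e-07). Eomes, a T-box factor of NK cells, stood at 47.6, 25.8, 66.3 and 32.7 CPM beside 259, 236, 84.7 and 195 CPM (-2.49, SE 0.30, edgeR adjusted p = 8.2e-06). Id2 did not differ beyond its error (-0.01, SE 0.16, edgeR adjusted p = 0.98).

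Other groups differed too. Of 78 cytoplasmic ribosomal protein genes tested 63 were higher in NKT-like than in NK cells, with a median of 0.57. Of 6 B cell genes found in both populations 5 were lower (Cd74, Cd79b, H2-Aa, H2-Ab1 and H2-Eb1). The summed level of the 13 B cell genes in the counts ranged from 1275 to 1518 CPM in NKT-like and from 2257 to 7446 CPM in NK cells, which were not limited on Cd79a. With the limits on Cd79a and Lyz2 also set on NK cells, none of the 5 genes was called, with log2 differences from -0.41 (Cd79b) to 0.07 (H2-Ab1) and edgeR adjusted p of at least 0.42. Cd74 moved from -1.43 to -0.03, while 595 genes were called over all. Of 74 oxidative phosphorylation genes found in both populations none was higher and 1 was lower.

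Against Cd4 T cells, NKT-like cells were higher in Il2rb, Id2, Nkg7 and Ccl5 and lower in genes of naive T cells. Of 3633 genes tested 337 were called (9.28%), 164 higher (4.51%) and 173 lower (4.76%). The difference had 1 sign in all 4 samples for 22.4% of the genes tested. Without young sample 1 the count was 136, without young sample 2 it was 115, and DESeq2 called 106. Of 727 genes that entered through NKT-like cells alone 100 were higher and none lower, and of the 2721 genes found in both populations 2.35% were higher and 4.45% lower. Of 14 genes in the counts from a list for NKT1 cells, the NKT subset that makes interferon γ, 5 were found in both populations (Ccl5, Cxcr3, Id2, Il2rb and Nkg7) and all 5 were higher than in Cd4 T cells. Another 8 entered through NKT-like cells alone, among them Tbx21, Xcl1 and Ifng, so that their direction was set by the filter. Against NK cells 11 of the 14 were found in both populations, of which none was higher and 5 were lower. Tbx21, the T-box factor of that subset, stood at 87.8, 58.0, 0 and 98.1 CPM beside 4.66, 14.4, 8.10 and 0 CPM (2.79, SE 0.49, edgeR adjusted p = 5.7e-06). Il2rb stood at 516, 531, 332 and 392 CPM beside 55.9, 68.1, 178 and 93.0 CPM (2.45, SE 0.24, edgeR adjusted p = 1e-15). Xcl1 stood beside 6.21, 41.3, 0 and 0 CPM in Cd4 T cells (3.76, SE 0.29, edgeR adjusted p = 1.8e-21). Ifng, found in 12.6% of NKT-like cells, stood at 40.2, 41.9, 22.1 and 32.7 CPM beside 1.55, 2.06, 8.10 and 0 CPM (3.69, SE 0.73, edgeR adjusted p = 6.7e-05). For these 4 genes only Tbx21 in old sample 1 lay below its own Cd4 T cells.

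**Figure D3:**
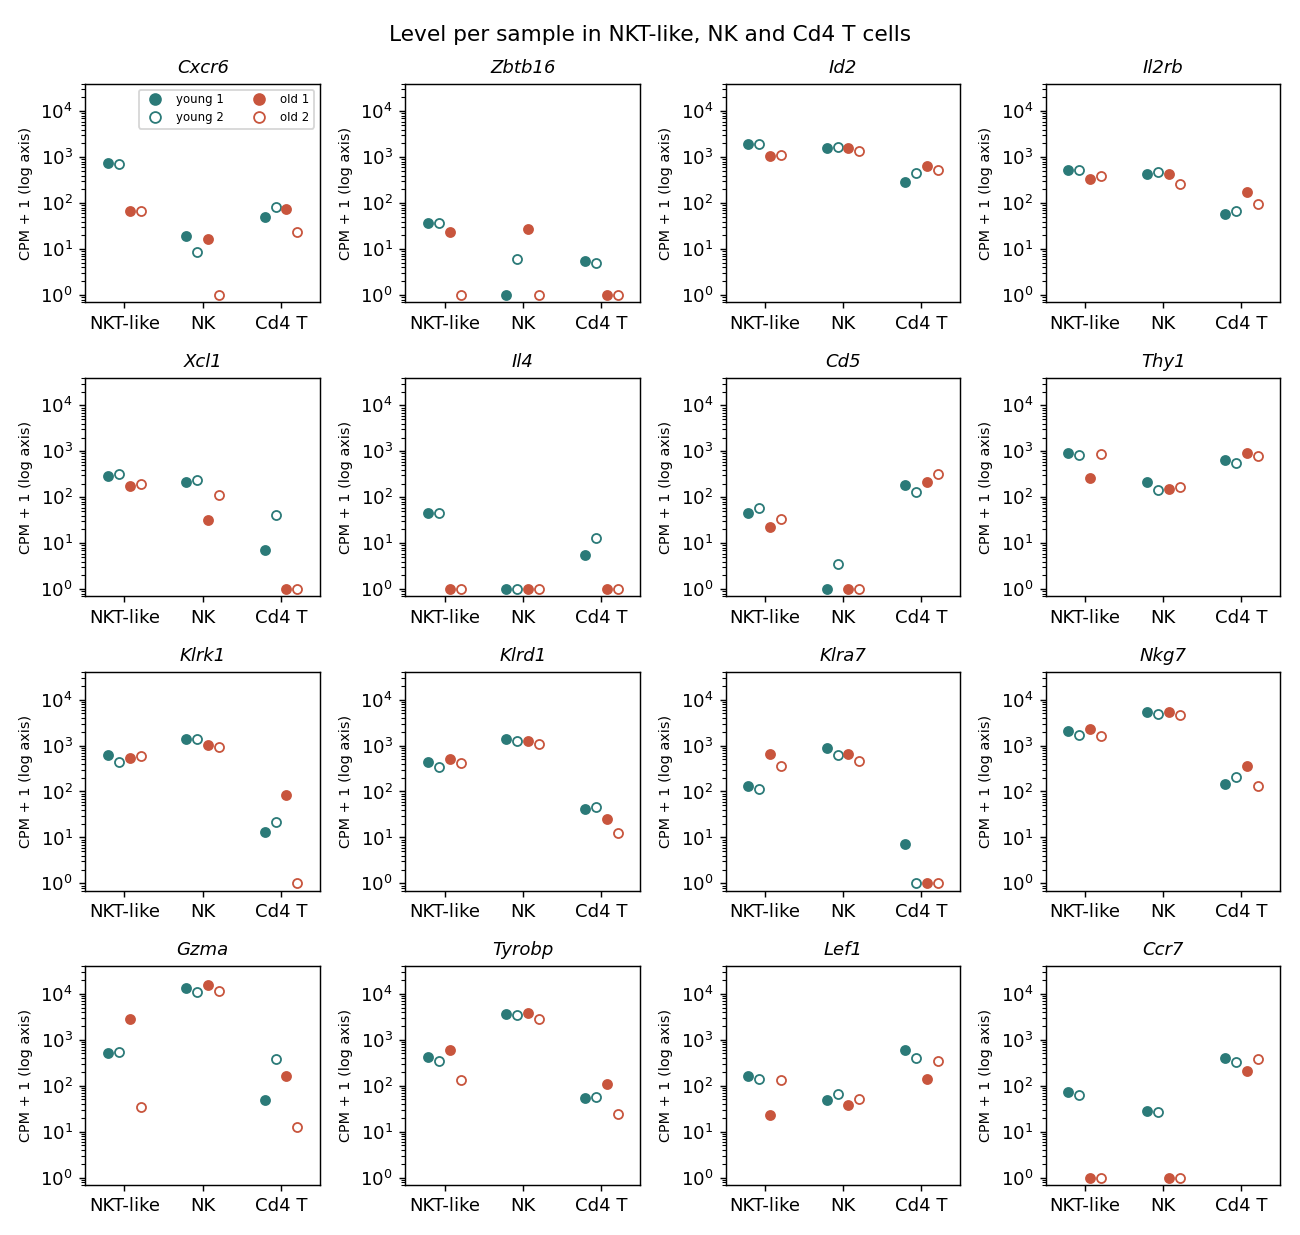
Level of 16 genes in NKT-like, NK and Cd4 T cells, as CPM plus 1 on a log axis, with 1 point per sample (green, young; red, old; filled, sample 1; open, sample 2). Cxcr6 stands at 746 and 721 CPM in young NKT-like cells and at no more than 82.5 CPM in any NK or Cd4 T sample, while Nkg7, Klrd1 and Klrk1 lie between the levels of NK and Cd4 T cells.

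Promoter sequences are shown for 3 genes. Xcl1 and Nkg7 were picked from the NKT1 list because the 250 bases before their start hold the T-box core motif. Cxcr6 is shown beside them and is without it. The sequences were taken from RefSeq on GRCm38.p6 and are printed on the gene's strand in lower case, with the letters GGTGTGA in capitals. The windows are chr1:164935523-164935772 (minus strand) for Xcl1, chr7:43436888-43437137 (plus strand) for Nkg7 and chr9:123806227-123806476 (plus strand) for Cxcr6.
Xcl1: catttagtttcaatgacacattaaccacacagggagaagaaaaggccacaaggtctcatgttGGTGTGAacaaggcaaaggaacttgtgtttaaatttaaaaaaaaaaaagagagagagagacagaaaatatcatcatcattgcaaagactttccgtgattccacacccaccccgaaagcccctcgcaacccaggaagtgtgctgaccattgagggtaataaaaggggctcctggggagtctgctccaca
Nkg7: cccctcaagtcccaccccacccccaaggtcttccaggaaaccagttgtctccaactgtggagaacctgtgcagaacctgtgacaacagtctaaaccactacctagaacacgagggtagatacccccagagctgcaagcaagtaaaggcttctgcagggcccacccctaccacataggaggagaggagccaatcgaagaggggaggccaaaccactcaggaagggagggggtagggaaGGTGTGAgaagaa
Cxcr6: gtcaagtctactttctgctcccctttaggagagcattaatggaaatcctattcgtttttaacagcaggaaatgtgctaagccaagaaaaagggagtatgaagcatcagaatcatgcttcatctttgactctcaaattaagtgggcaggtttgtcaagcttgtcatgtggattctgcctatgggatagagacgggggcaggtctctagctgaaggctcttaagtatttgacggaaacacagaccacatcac
The motif, searched as GGTGTGA on both strands, was in 3.33% of the 32851 such windows and in those of 2 of the 11 NKT1 genes that had a window. A match is a description of letters, not of binding, and no T-box factor was measured at these sites.

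Among the genes called higher than in Cd4 T cells with 1 direction in all 4 samples, the 10 largest log2 differences were those of Klra6, Klra7, Klrc1, Klrc2, Klrk1, Cd160, Ly6c2, Xcl1, Ifng and Fgl2. All 10 were found in under 10% of Cd4 T cells, so they entered through NKT-like cells alone and their direction was set by the filter. Under the same filter all 10 were still called against T cells with no requirement on Cd4. Their log2 differences were then smaller, from 1.87 (Ly6c2) to 2.96 (Fgl2). Klrk1 stood at 622, 444, 530 and 589 CPM beside 12.4, 20.6, 81.0 and 0 CPM (4.45, SE 0.29, edgeR adjusted p = 2e-26, and 2.55 with no requirement on Cd4). Klrc1, which encodes the inhibitory receptor NKG2A and shares sequence with Klrc2, stood at 260, 171, 111 and 164 CPM beside 6.21, 4.13, 0 and 0 CPM (5.22, SE 0.38, edgeR adjusted p = 7.5e-23, and 2.72 with no requirement on Cd4). Klra6 had 24 UMIs in NKT-like and none in Cd4 T cells, a difference of at least 16.2-fold with 3 UMIs allowed over all Cd4 T cells. Of 10 Ly49 genes in the counts only 3 were tested, and these, like the 5 lectin receptor genes called higher, entered through NKT-like cells alone. Of 7 granule genes found in both populations Ctsd, Ctsw and Nkg7 were higher, Nkg7 standing at 144, 210, 364 and 128 CPM in Cd4 T cells (3.14, SE 0.22, edgeR adjusted p = 6.4e-24). Of 8 NK adaptors, each found in both populations, Tyrobp, Fcer1g, Txk and Cd7 were higher.

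Genes of naive T cells were lower. Of 10 found in both populations 8 were lower (80%, beside 4.45% of all genes found in both), and 4 more entered through Cd4 T cells alone. Ccr7, the receptor for entry into lymph nodes, stood at 73.2, 61.2, 0 and 0 CPM beside 401, 326, 202 and 384 CPM (-2.80, SE 0.27, edgeR adjusted p = 1.2e-15). Lef1, a factor of naive T cells, stood at 157, 138, 22.1 and 131 CPM beside 598, 406, 138 and 337 CPM (-1.91, SE 0.24, edgeR adjusted p = 2.9e-10). Il6ra, the IL-6 receptor, had the largest log2 difference downward among genes called with 1 direction in all 4 samples (-5.21, SE 0.53, edgeR adjusted p = 1.4e-14), followed by Igfbp4, Actn1, Dapl1, Trib2, Ccr7, Tdrp, Pdlim4, Fam169b and Izumo1r. Il6ra, Igfbp4, Actn1, Dapl1 and Izumo1r entered through Cd4 T cells alone, so that their direction was set by the filter. Of 16 genes of T cell receptor signaling found in both populations 6 were lower (Cd247, Lat, Cd5, Cd6, Cd27 and Cd28) and none was higher.

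Of 15 transcription factors found in both populations Id2 and Runx3 were higher and Bcl11b, Klf2, Klf3, Klf6, Tcf7 and Lef1 lower than in Cd4 T cells. Zbtb16, Tbx21 and Bhlhe40 entered through NKT-like cells alone and were higher, and Id3 entered through Cd4 T cells alone and was lower. Runx3 kept its call in only 9 of 17 alternatives (edgeR or DESeq2 adjusted p up to 0.352), Bcl11b in 13 of 17 (up to 0.563), Zbtb16 in 10 of 12 (up to 0.187) and Id3 in 12 of 14 (up to 0.166). Id2 stood at 1946, 1945, 1061 and 1112 CPM beside 284, 444, 640 and 535 CPM (1.69, SE 0.22, edgeR adjusted p = 3.7e-10). Id3, its relative in conventional T cells, stood between 0 and 19.3 CPM beside 11.6 to 72.9 CPM (-2.08, SE 0.49, edgeR adjusted p = 0.0011). Of the genes written down for NKT2 cells, the IL-4 making subset, 5 were found in both populations, of which Plac8 was higher and Ccr7 and Slamf6 were lower. Zbtb16 and Il4 entered through NKT-like cells alone and were higher. Of 11 genes in the counts from a list for the NKT17 subset only 3 were tested. Il7r, the member found in both populations, was lower. Tmem176a and Tmem176b, a pair of membrane proteins linked to that subset, entered through NKT-like cells alone and were both higher. Red cell genes were lower in NKT-like than in Cd4 T cells in 6 of 6 tested. Their summed level was 16047, 65526, 18785 and 12951 CPM beside 27849, 94323, 68027 and 11344 CPM. Leaving the red cell genes out kept the number of genes called within 1.5 times.

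**Figure D4:**
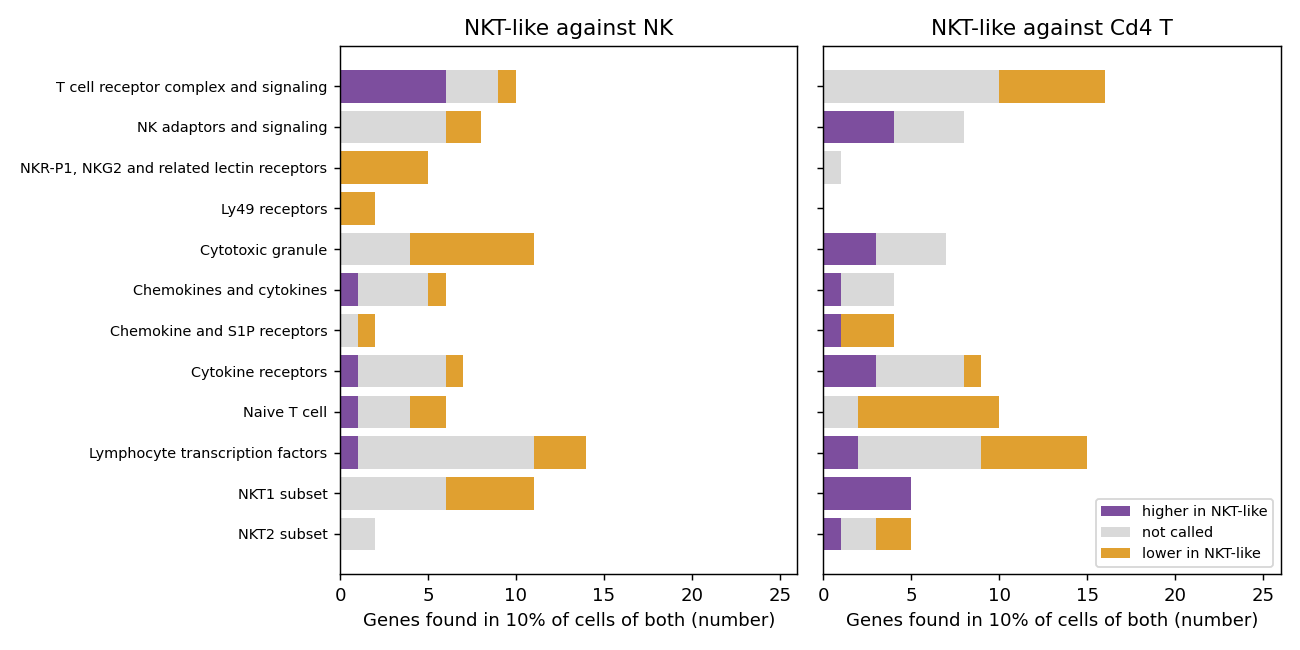
Number of genes per list found in at least 10% of the cells of both populations (x axis) that were called higher (purple), called lower (yellow) or not called (grey) in NKT-like cells against NK cells (left) and against Cd4 T cells (right), by edgeR at an adjusted p under 0.05. All 5 NKT1 genes are higher against Cd4 T cells, 6 of 10 genes of T cell receptor signaling are higher against NK cells, and a gene can be in more than 1 list.

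With age, 1 of 2459 genes tested was called in NKT-like cells (0.0407%), and DESeq2 also called 1. The gene was Cxcr6, at 746 and 721 CPM in young and 66.3 and 65.4 CPM in old cells (log2 change -3.54, SE 0.41, edgeR adjusted p = 0.0049). The old values are 3 and 2 UMIs. A Cxcr6 UMI was found in 51 of 83 and 73 of 94 young cells and in 3 of 10 and 2 of 11 old cells. At 1000 UMIs per cell these shares were 44.6% and 44.7% in young and 10.0% and 9.09% in old cells. Over 13 alternatives the log2 change ranged from -3.87 to -3.44, and it was called in 11 of them. It was not called without young sample 1 or without young sample 2 (edgeR adjusted p = 0.995 and 0.998), where 1 young sample is assumed to vary like the old ones. Whether this change differs from that in other cells was not tested, because Cxcr6 was found in too few NK and Cd4 T cells. The levels in young 1, young 2, old 1 and old 2 were 48.1, 82.5, 72.9 and 23.2 CPM in Cd4 T cells, 71.0, 67.3, 105 and 105 CPM in Cd8 T cells and 193, 220, 114 and 18.4 CPM in Gzmk T cells.

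No other gene passed the adjustment, and 132 genes had an unadjusted p under 0.05. Klra7, encoding the receptor Ly49G, stood at 132 and 110 CPM in young and 641 and 360 CPM in old cells (2.04, SE 0.33, edgeR adjusted p = 0.061). Ccl5 stood at 9381 and 7263 CPM in young and 15249 and 21323 CPM in old cells (1.07, SE 0.22, edgeR adjusted p = 0.20). Id2 stood at 1946 and 1945 CPM in young and 1061 and 1112 CPM in old cells (-0.92, SE 0.23, edgeR adjusted p = 0.64). The ages did not overlap in any of these 3, but neither did they in 812 of the 2459 genes (33%). Nkg7, Klrd1 and Klrk1 had log2 changes of -0.02, 0.20 and -0.01 with SE of 0.23, 0.27 and 0.28. With 21 old cells, the count of called genes moved from 0 to 72 when 1 sample was left out (15 without old sample 1, 72 without old sample 2, 0 without either young sample), so the number of genes that differ with age is not known from these samples.

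Interaction tests asked whether the change with age differed between populations. Against NK cells, 1 of 2045 genes was called (0.0489%), Klra7, by 2.36 (SE 0.32, edgeR adjusted p = 0.037), its NK level being 895 and 630 CPM in young and 641 and 451 CPM in old blood. It was not called without young sample 1 (edgeR adjusted p = 0.308) or without old sample 1 (edgeR adjusted p = 0.0708). For 37.7% of the genes tested, the log2 ratio of NKT-like to NK cells did not overlap between the ages. Against Cd4 T cells, 27 of 2019 genes were called (1.34%), 16 higher (0.792%) and 11 lower (0.545%), and the log2 ratio of NKT-like to Cd4 T cells did not overlap between the ages for 41.2% of the genes tested. Of the 16 higher, 12 were among 78 cytoplasmic ribosomal protein genes tested. DESeq2 called no gene higher. Ly6a, encoding the surface protein Sca-1, stood at 318 and 332 CPM in young and 88.4 and 196 CPM in old NKT-like cells, beside 183 and 287 CPM in young and 1077 and 1023 CPM in old Cd4 T cells (-3.34, SE 0.44, edgeR adjusted p = 0.00056). Ifi27l2a, an interferon-stimulated gene, stood at 395, 432, 309 and 65.4 CPM beside 826, 831, 3369 and 3440 CPM (-2.89, SE 0.37, edgeR adjusted p = 0.00056). Id2 differed by -1.44 (SE 0.29, edgeR adjusted p = 0.015). Without young sample 1, young sample 2, old sample 1 and old sample 2 the count was 5, 4, 61 and 136, and DESeq2 called 2. In the Ly6a and Ifi27l2a results the Cd4 T cells differ between the ages by more than the NKT-like cells do.

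**Figure D5:**
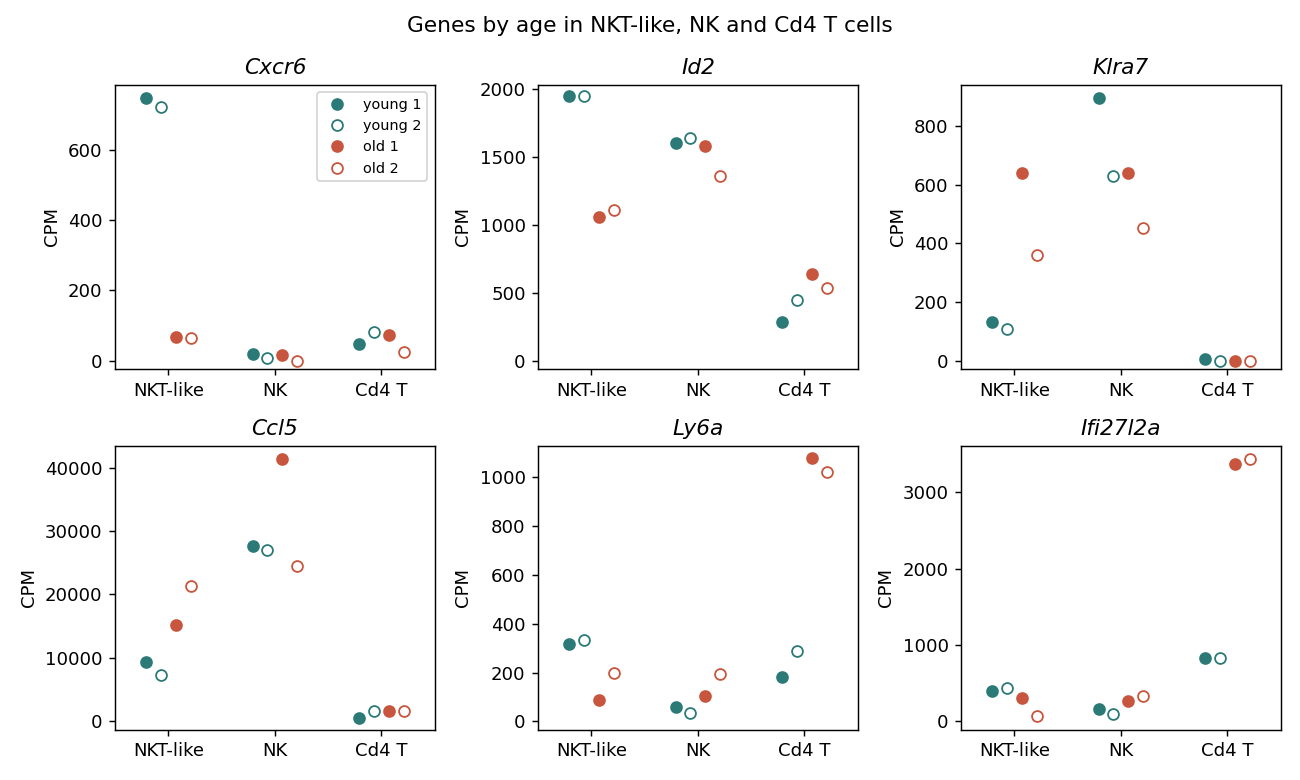
Level in CPM (y axis, linear) of Cxcr6, Id2, Klra7, Ccl5, Ly6a and Ifi27l2a in NKT-like, NK and Cd4 T cells, with 1 point per sample (green, young; red, old; filled, sample 1; open, sample 2). Cxcr6 in NKT-like cells stands at 746 and 721 CPM in young and 66.3 and 65.4 CPM in old samples, while Ly6a and Ifi27l2a differ most between the ages in Cd4 T cells.

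Within young blood, NKT-like cells with a Cxcr6 UMI differed in other genes from those without. This is a description of cells split by a measured gene, of genes chosen after their values were seen, and cells without a UMI may still express the gene. In young sample 1, 51 cells had Cxcr6 (median 3171 UMIs) and 32 did not (median 3006 UMIs). In young sample 2, 73 cells had it (median 3117 UMIs) and 21 did not (median 3415 UMIs). Cells with Cxcr6 had 2656 and 2227 CPM of Id2 in the 2 samples, and cells without it 682 and 966 CPM. Gzmb, a granzyme, stood at 383 and 336 CPM with and 30.5 and 115 CPM without Cxcr6, and Ly6a at 440 and 398 CPM with and 102 and 101 CPM without. Tmem176b and Icos, a costimulatory receptor, were also higher with Cxcr6 in both samples.
Other genes went the opposite way. Ccl5 stood at 6341 and 5217 CPM with and 14797 and 14379 CPM without Cxcr6. Klra7 stood at 22.8 and 58.1 CPM with and 326 and 288 CPM without, and Klf2, a factor that keeps lymphocytes in the circulation, at 343 and 174 CPM with and 1852 and 764 CPM without. For all old NKT-like cells the levels were 1061 and 1112 CPM of Id2, 15249 and 21323 CPM of Ccl5, 641 and 360 CPM of Klra7, 309 and 0 CPM of Gzmb and 442 and 1341 CPM of Klf2. In old sample 1 Gzmb and Klf2 lay nearer to young cells with Cxcr6, and Id2, Ccl5 and Klra7 nearer to those without. In old sample 2 all of these genes lay nearer to young cells without Cxcr6, as did Ly6a in both old samples.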

How the data were processed

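Cells of 2 young and 2 old pooled blood samples were read from the UMI counts per gene and cell that the authors deposited. The authors made these counts with Cell Ranger on mm10, aggregated duplicates by age, and filtered cells on genes found (over 500, under 4000) and on mitochondrial UMIs (under 10%) (Seurat 2.3.0 is named in the submitters' processing notes). The counts are whole numbers without normalization. They hold 14697 genes and 50780376 UMIs, and the 4 samples hold 9521253 to 18658072 UMIs each, the old samples with 3186.5 and 3482 and the young with 2332 and 2233 UMIs per cell at the median. The sources used here do not say if aggregation equalised depth. A deposited list of cells gave the sample that each came from.

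Cells were gated on UMIs as the report states. UMIs were summed per sample and population and entered the quasi-likelihood test of edgeR 4.0.16 (TMM, Benjamini-Hochberg adjustment over all genes tested, threshold 0.05). A gene was tested against NK or Cd4 T cells if at least 10% of the cells of either population had a UMI, with the sample as a block, and by age if 10% of the cells of each age had one. A population had to hold at least 5 cells in each sample. Numbers of cells were tested with edgeR over 7 populations, or 4 T cell populations, without TMM and with 1 common dispersion. Percentages also had an exact permutation test. DESeq2 1.42.0, other size factors, filters, gates, doublet scores (Scrublet in scanpy 1.11.5, expected rate 4%), left-out samples and thinning were alternatives. The replicate numbers did not pair young with old samples (correlation of deviations 0.00133 over 2459 genes). P-values by age within NKT-like cells and for numbers of cells measure the spread between pools of 2 mice. In the fits with the sample as a block they measure the spread of within-sample differences over these pools. Intervals reflect only counting error. Where no UMI was seen, 3 UMIs were allowed. The tests were also run on simulated counts drawn with 1 common dispersion for all genes, and the outcome is not given here.

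The gate, the gene lists and the rule for named genes were chosen with earlier results of these data known. Genes named are the markers, the gate genes, members of the lists, the 10 genes per direction (5 for age) with the largest log2 difference among those called with 1 direction in all samples, and the genes used in the study for T and NK clusters. Some genes that meet this rule are not reported here. The list of Cxcr6-split genes, the T-box motif and the 3 promoters were chosen after values were seen. Other tools were R 4.3.3, limma 3.58.1, matplotlib 3.10.9, pandas 2.3.3, scipy 1.17.1, numpy 2.4.6 and Python 3.11.15. Promoters came from RefSeq tables on GRCm38.p6, the same build as mm10.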

Additional observations from a re-analysis of the deposited data

Results flagged for a closer look

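The change with age differed between NKT-like and NK cells for 1 gene, Klra7, by the interaction test (2.36 on the log2 scale, edgeR adjusted p = 0.037). Klra7 stood at 132, 110, 641 and 360 CPM in NKT-like cells of young 1, young 2, old 1 and old 2, and at 895, 630, 641 and 451 CPM in NK cells. Between the ages both old samples of NKT-like cells lay above both young ones.

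Of the 27 genes whose change with age differed between NKT-like and Cd4 T cells, 8 with large differences follow. Hmgn1 (a nucleosome-binding protein) differed by 2.62, Npm1 (nucleophosmin) by 1.34 and the ribosomal protein gene Rpl31 by 1.17. In the other direction Ly6a differed by -3.34, Ifi27l2a by -2.89, Lpxn (an adhesion adaptor) by -2.85, Cd82 (a tetraspanin) by -1.95 and Prr13 by -1.59. Their edgeR adjusted p ranged from 0.00056 to 0.041. DESeq2 called 2 of the 27 genes, both lower, and so none of Hmgn1, Npm1 and Rpl31. The old NKT-like levels rest on 10 and 11 cells.

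Hmgn1 stood at 91.5, 90.2, 199 and 229 CPM in NKT-like and 183, 165, 72.9 and 69.7 CPM in Cd4 T cells. Lpxn stood at 135, 142, 66.3 and 32.7 CPM beside 54.3, 47.5, 130 and 198 CPM. Cd82 stood at 285, 264, 111 and 196 CPM beside 127, 130, 251 and 349 CPM. In each of these 3 genes the old samples lay on opposite sides of the young ones in the 2 populations. Prr13 was higher in both old samples in both populations, at 384, 303, 420 and 425 CPM beside 143, 208, 688 and 732 CPM. Platelet genes, summed, stood at 0 and 0 CPM in young and 508 and 131 CPM in old NKT-like cells and at 1.55, 0, 745 and 186 CPM in Cd4 T cells. Their part in these results was not tested.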

How the results depend on the processing

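Old NKT-like cells (10 and 11 per sample) limit every comparison by age, and a sample left out leaves 1 sample in its group, assumed to vary like the other group. Leaving out shared barcodes, red cell genes or thinning cells before summing was chosen after seeing the data.

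Against NK cells 539 genes were called. The count was 254 with DESeq2, 299 among genes detected in both populations, 329 with cells thinned, and 225 to 663 with 1 sample left out (225 without young sample 2). Against Cd4 T cells 337 were called. The count was 106 with DESeq2, 202 with filterByExpr, 189 with at least 2 Klrb1c UMIs, 619 in young samples only, 152 among genes detected in both populations, 128 with cells thinned, and 115 to 372 with 1 sample left out (115 without young sample 2). By age 1 was called. The count was 46 without a filter on low counts, 42 with at least 2 Klrb1c UMIs, 4 without the highest doublet scores, 3 without shared barcodes, 2 without red cell genes, 0 with cells thinned (where Cxcr6 was found in too few old cells to be tested), and 0 to 72 with 1 sample left out (72 without old sample 2).

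For the difference in age effect against NK cells 1 gene was called. The count was 5 with DESeq2, 38 without a filter, 23 with filterByExpr, 61 with at least 2 Klrb1c UMIs, 13 without the highest doublet scores, 13 without shared barcodes, 5 with NK cells limited on Cd79a and Lyz2, and 0 to 36 with 1 sample left out (0 without young sample 1, 36 without old sample 2). Against Cd4 T cells 27 were called. The count was 2 with DESeq2, 42 with RLE size factors, 46 without a filter, 50 with filterByExpr, 71 with at least 2 Klrb1c UMIs, 44 without the highest doublet scores, 43 with no requirement on Cd4, 45 without shared barcodes, 57 without red cell genes, and 4 to 136 with 1 sample left out. The cause of these shifts was not tested.

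NKT-like cells per 100 cells changed by -2.81 on the log2 scale (-3.39 to -2.17 with 1 sample left out) and passed the threshold under all 13 alternatives run. The alternative that left out populations under 5 cells removed none, so it only repeated the main fit, here and per 100 T cells. Per 100 T cells the change was -1.08 (-1.40 to -0.76 with 1 sample left out), and -0.91 and past the threshold without the limits on Gzmk and Cd8. Under no other alternative was the change per 100 T cells past the threshold. With the replicate number as a block 1 gene was called by age and NKT-like cells per 100 cells changed by -2.80. Without the sample as a replicate block 561 genes were called against NK and 240 against Cd4 T cells.

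Of 4173 checks of single genes 3810 kept direction and side of the threshold, 230 lost and 126 gained the call, and 7 reversed. In young samples only, Id2 (0.39), Ccnd2 (0.37), Hba-a1 (0.38) and Hbb-bs (0.65) reversed against NK cells, and Npm1 (-0.42) and Thy1 (0.37) against Cd4 T cells. With at least 2 Klrb1c UMIs Ly6c2 reversed by age (-1.55).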
